A study of Mus musculus with 5 samples.

Results

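The immediate early transcription factors Egr1, Egr2, Fos, Fosb, Fosl1, Fosl2, Jun, Junb, Atf3 and Nr4a1, 10 genes in all, were followed across 5 single-cell clones of Ocy454, a conditionally immortalized mouse osteocyte-like line. They were taken by gene symbol as factors of the EGR, AP-1, ATF3 and NR4A families. No measured value entered that rule, but earlier results of these data were known when the factors and the gene lists below were chosen. All 10 were measured, by 1 probe set each, among 23185 named genes. From 37 screened clones, the 2 with the highest Sost (12H and 15H) and 3 with low Sost (4L, 9L and 24L) were profiled on 1 Affymetrix array each. Every clone was untreated, and all had grown for 7 days at 37 °C in medium with 10% serum. Each clone is the progeny of 1 cell, so a group stands for 2 or 3 clones, and the variation of 1 clone between cultures was not measured.

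Immediate early genes are transcribed within minutes of a signal, without new protein synthesis, and most of their messages decay quickly. In bone cells they respond to serum, parathyroid hormone and mechanical load, through ERK and other kinases acting on the factors SRF, ELK and CREB at their promoters. FOS and JUN family proteins pair through leucine zippers to form AP-1, EGR proteins are zinc-finger factors, ATF3 is a stress-induced partner of JUN proteins, and NR4A1 is an orphan nuclear receptor.

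Promoter sequences of Jun, Atf3, Fos and Junb are shown because Jun and Atf3 read lower in both high-Sost clones while Fos and Junb did not separate the groups. Each is the 250 bases before the RefSeq start (GRCm38.p6), printed 5′ to 3′ on the gene's strand. Capitals mark matches, on either strand, to TGANTCA and TGACNTCA (AP-1 and CRE-type elements), TGACG (the CRE core, which overlaps TGACNTCA where N is G), GCGNGGGCG (an EGR element) or the CArG box that SRF binds.
Jun, minus strand of chr4:95052223-95052472: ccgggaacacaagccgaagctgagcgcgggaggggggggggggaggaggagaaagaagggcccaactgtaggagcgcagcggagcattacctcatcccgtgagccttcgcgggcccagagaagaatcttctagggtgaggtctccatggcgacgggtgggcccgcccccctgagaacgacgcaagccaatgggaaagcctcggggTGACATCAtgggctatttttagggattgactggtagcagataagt
Atf3, minus strand of chr1:191183334-191183583: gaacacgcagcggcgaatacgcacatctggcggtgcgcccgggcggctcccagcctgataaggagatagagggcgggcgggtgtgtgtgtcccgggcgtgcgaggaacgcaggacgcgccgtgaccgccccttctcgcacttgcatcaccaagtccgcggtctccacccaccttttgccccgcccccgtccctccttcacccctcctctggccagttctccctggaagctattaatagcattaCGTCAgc
Fos, plus strand of chr12:85473640-85473889: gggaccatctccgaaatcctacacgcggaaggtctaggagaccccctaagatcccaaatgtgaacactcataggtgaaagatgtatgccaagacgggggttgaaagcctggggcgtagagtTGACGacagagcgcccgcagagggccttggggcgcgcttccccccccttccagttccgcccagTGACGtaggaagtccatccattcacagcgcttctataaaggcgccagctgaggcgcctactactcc
Junb, minus strand of chr8:84978749-84978998: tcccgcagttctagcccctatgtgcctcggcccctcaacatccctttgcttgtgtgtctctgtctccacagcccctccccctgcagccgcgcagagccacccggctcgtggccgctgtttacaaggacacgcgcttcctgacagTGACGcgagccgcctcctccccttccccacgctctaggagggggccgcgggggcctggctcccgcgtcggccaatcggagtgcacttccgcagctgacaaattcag

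The Jun window held TGACATCA, a TGACNTCA match, 45 to 38 bases before the start. TGACG stood in Fos 66 to 62 and 129 to 125 bases before the start, in Junb 106 to 102 bases before it, and on the opposite strand in Atf3 7 to 3 bases before it. Of 32851 RefSeq windows of this length, 7.49% held TGACNTCA, 17.8% TGACG, 6.75% TGANTCA, 4.70% GCGNGGGCG and 1.47% a CArG box. Windows of 8 of the 10 genes were examined, and none of Egr1 or Fosl1. Beyond the printed ones, the Nr4a1 window carried TGACG at 4 places, and TGACG also stood in the Fosb window and in Egr2 windows. An Egr2 window held the CArG match CCATATATGG 72 to 63 bases before 1 of its starts, and another Egr2 window held the CArG match CCTTTTTTGG. The EGR element GCGNGGGCG stood in Fosb 50 to 42 and in Fosl2 79 to 71 bases before the start. On the opposite strand it stood in Nr4a1 60 to 52 bases before the start. Only these 250 bases were searched, so an element outside them, in Fos or any other gene, would not be seen. A match is a description of letters and does not show a bound site.

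Expression values are RMA values on the log2 scale, which can be compared between clones for 1 gene but not between genes. Differences are high-Sost minus low-Sost clones, with limma's moderated standard error (SE) and its 95% interval, and adjusted p is Benjamini-Hochberg over all named genes. The array medians lay between 4.13 and 4.16. All 10 factors exceeded, in all 5 clones, the 95th percentile of 1350 olfactory and vomeronasal receptor genes (3.37 to 3.56), a class used as a level of weak signal. Of 7 osteocyte markers 4 read higher and 1 lower without overlap in the high-Sost clones. Dmp1, Phex and Dkk1 read at least 2-fold higher. Sost itself read 4.08 in 12H and 3.92 in 15H, against 3.78 to 3.91 in the low-Sost clones. Only 0.006 separated 15H from 24L, so Sost hardly separated the groups on these arrays. Its probe set read only slightly above the weak-signal level, at the 45.2 to 49.3 percentile of genes, which limits what it can show. Pdpn, the podoplanin gene of early osteocytes, read lower (8.06 and 8.35, with 8.97 to 9.20 in the low-Sost clones; difference -0.92, SE 0.13). Mepe and Fgf23 lay under that weak-signal level in every clone. Neither the 5 endothelial nor the 5 blood markers measured held a gene with a mean of 6 or more. The blood marker Cd68 came close, with a mean of 5.95, and exceeded the weak-signal level in all 5 clones. The osteoblast markers had a median difference of 2.16 over 6 genes and read lowest in clone 4L in 5 of them. Their mean level was 10.35 and 10.02 in the high-Sost clones, 5.81 in 4L and 8.65 to 8.93 in the other low-Sost clones. Of 6 fibroblast or tendon markers 3 read lower and 1 higher without overlap in the high-Sost clones, and of 7 muscle markers 2 lower and 2 higher, where 7.75% of all named genes were lower and 8.26% higher. The part of these differences in the results below was not tested. In bulk RNA, fewer cells expressing a gene and less RNA per cell cannot be told apart. With 5 arrays, their number limits the precision.

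Across the 10 factors, 9 had a negative difference and 1, Junb, a positive one. Egr1, Jun, Atf3 and Fosl1 read lower in both high-Sost clones than in every low-Sost clone, and no factor read higher in both. Among all named genes 7.75% separated in the lower direction and 8.26% in the higher direction. Weak probe sets often give tied values, and among 7807 genes with a mean of 6 or more 13.5% separated in the lower and 12.9% in the higher direction, against 4 and 0 of the 8 factors at that level. The median difference of the 10 factors was -0.50, against 0.00 over all named genes. With limma's adjusted p under 0.05 as the threshold, none of the 10 passed, and neither did any other gene (0% called). At an unadjusted p under 0.05 in limma, 3 factors (Egr1, Atf3 and Jun) were lower, against 2.71% of all genes, and 0 higher, against 3.07%. Of the 7807 genes with a mean of 6 or more, 407 were lower and 342 higher at that p. Only Jun reached a 2-fold difference without overlap, where 0.983% of all genes did so in the lower and 0.867% in the higher direction. Of the 7807 genes with a mean of 6 or more, 124 did so in the lower and 107 in the higher direction. Without clone 12H the count of factors that did so was 0, and without clone 4L it was 3 (Jun, Egr2 and Egr1). The 2-fold shares of all genes are for the full set of clones and were not computed with a clone left out. Clone 4L stood apart in its osteoblast markers, and without it 6 factors read lower without overlap, where 11.1% of all genes did.

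**Figure D1:**
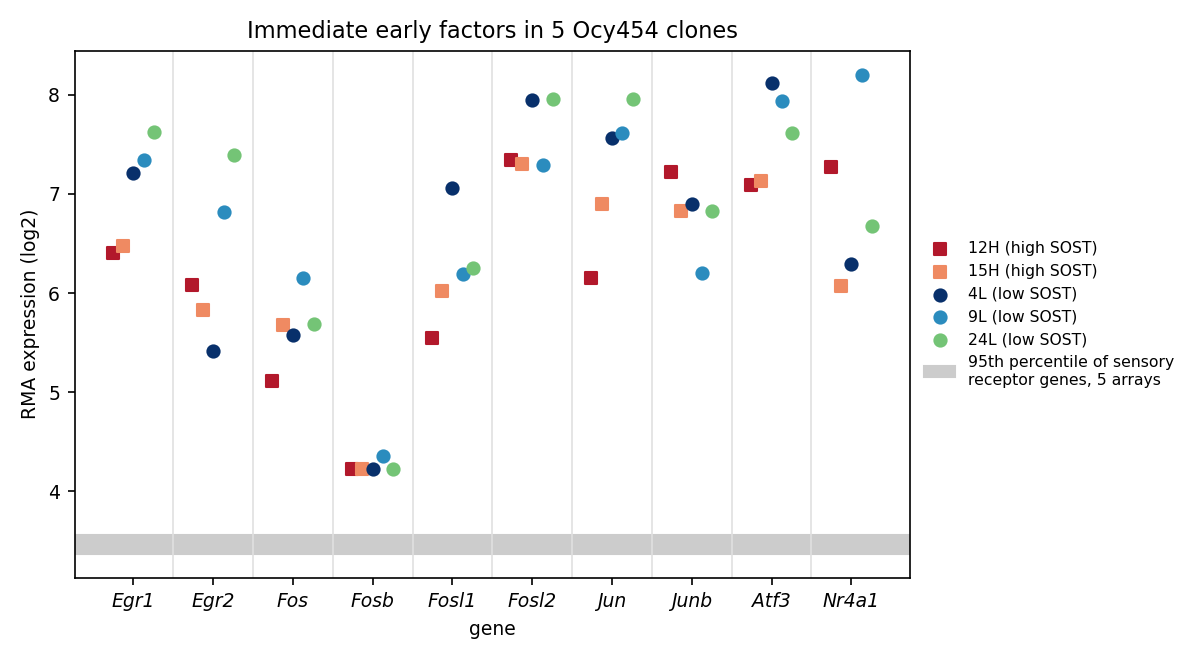
Expression (RMA log2, vertical axis) of the 10 factors (horizontal axis) in each clone, with squares for the 2 high-Sost clones, circles for the 3 low-Sost clones and a grey band for the 95th percentile of receptor genes on the 5 arrays. Both squares lie below all 3 circles for Egr1, Jun, Atf3 and Fosl1, while the points of Egr2, Junb and Nr4a1 are interleaved.

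EGR factors bind GC-rich elements in growth and matrix genes. Egr1, induced in osteoblasts and osteocytes by serum and load, read 6.40 in 12H and 6.48 in 15H, while 4L, 9L and 24L gave 7.21, 7.34 and 7.63. The 2 high-Sost clones lay within 0.08 of each other, and 0.73 separated the upper of them from the lowest low-Sost clone, with a pooled within-group SD of 0.17. The high-Sost clones averaged 6.44 ± 0.05 (SD, n = 2), the low-Sost clones 7.39 ± 0.21 (SD, n = 3), and the difference of -0.95 (SE 0.15, 95% interval -1.37 to -0.54) was 1.94-fold. This had the smallest p of the 10 in limma, 0.00363 before adjustment and 0.588 after it over all genes.

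Egr2, an EGR factor known best from Schwann cell myelination, varied more widely than Egr1 and in another order. It read 6.09 in 12H and 5.83 in 15H, while 4L, 9L and 24L gave 5.41, 6.82 and 7.40. The low-Sost clones spanned both ends of the range, 3.96-fold from 4L to 24L, and enclosed the high-Sost clones. The difference was -0.58 (SE 0.69, 95% interval -2.56 to 1.40), an interval that includes differences of more than 2-fold either way. Without clone 4L the groups of Egr2 no longer overlapped and the difference was -1.15. Egr1 and Egr2 shared their highest clone, 24L, and differed in 4L, which stood above the mean of the 5 clones for Egr1 and lowest for Egr2.

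FOS family proteins form stable dimers with JUN proteins and not with each other. Fos itself read 5.11 in 12H and 5.67 in 15H, while 4L, 9L and 24L gave 5.58, 6.16 and 5.69. Clone 12H was lowest and 9L highest, while 15H, 4L and 24L lay within 0.11 of each other, less than the pooled SD of 0.34. The difference was -0.42 (SE 0.28, 95% interval -1.22 to 0.39), and it was -0.13 without clone 12H. Fosb read 4.23 in 4 clones, as an identical deposited value, and 4.36 in 9L. With a span of 0.13 this was the flattest of the 10 factors, and also the one with the lowest place among all genes of an array, at the 50.5 to 52.0 percentile.

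Fosl1, which encodes FRA-1, an AP-1 subunit that favours bone matrix formation in mice, read 5.55 in 12H and 6.03 in 15H, while 4L, 9L and 24L gave 7.06, 6.20 and 6.25. The groups did not overlap, but 15H lay 0.17 below 9L, less than the pooled SD of 0.44, so the separation of those neighbours was within the spread. Clone 4L stood alone at the top, 2.86-fold above 12H. The difference was -0.72 (SE 0.36, 95% interval -1.76 to 0.33, adjusted p = 0.737), and -0.44 without clone 4L.

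Fosl2, which encodes FRA-2, an AP-1 subunit of osteoblasts and chondrocytes, read 7.34 in 12H, 7.31 in 15H and 7.29 in 9L, against 7.95 in 4L and 7.96 in 24L. The clones thus formed a lower set of 3 within 0.05 and an upper set of 2 within 0.01, and the low-Sost clone 9L lay with the high-Sost clones. The difference was -0.41 (SE 0.26, 95% interval -1.14 to 0.33), and -0.63 without clone 9L.

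JUN proteins form AP-1 dimers among themselves or with FOS and ATF proteins. Jun read 6.16 in 12H and 6.89 in 15H, while 4L, 9L and 24L gave 7.56, 7.62 and 7.96. The low-Sost clones lay within 0.39 of each other, and 15H lay 0.67 below the lowest of them, more than the pooled SD of 0.35. The high-Sost clones averaged 6.52 ± 0.52 (SD, n = 2), the low-Sost clones 7.71 ± 0.21 (SD, n = 3), and the difference of -1.19 (SE 0.29, 95% interval -2.01 to -0.37) was 2.28-fold, with a limma p of 0.0169 and an adjusted p of 0.737. Clone 12H sat 0.74 below 15H, and without 12H the difference was -0.82.

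Junb, whose product can oppose JUN at some promoters, followed another order. It read 7.22 in 12H and 6.83 in 15H, while 4L, 9L and 24L gave 6.90, 6.20 and 6.83. Clone 12H, lowest for Jun, was highest for Junb, and 9L was lowest, while 15H, 4L and 24L lay within 0.07 of each other. The difference was 0.38 (SE 0.29, 95% interval -0.45 to 1.21). Leaving out 12H gave 0.18, and leaving out 9L gave 0.16. Junb lies on chromosome 8, whose genes had a median deviation of 0.23 in 12H and -0.19 in 9L, and with each clone's chromosome medians subtracted the difference was 0.20.

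Atf3, a bZIP factor induced by many stresses and by parathyroid hormone in osteoblasts, read 7.09 in 12H and 7.13 in 15H, while 4L, 9L and 24L gave 8.12, 7.94 and 7.61. The high-Sost clones lay within 0.04 of each other, and 0.48 separated them from 24L, the lowest low-Sost clone, with a pooled SD of 0.21. The high-Sost clones averaged 7.11 ± 0.03 (SD, n = 2), the low-Sost clones 7.89 ± 0.26 (SD, n = 3), and the difference of -0.78 (SE 0.17, 95% interval -1.28 to -0.28) was 1.72-fold, with a limma p of 0.0133 and an adjusted p of 0.735. The order of the low-Sost clones, with 4L highest, was the reverse of that in Egr1 and Jun.

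Nr4a1, an orphan nuclear receptor induced in osteoblasts by parathyroid hormone and cyclic AMP, varied most of the 10. It read 7.27 in 12H and 6.07 in 15H, while 4L, 9L and 24L gave 6.29, 8.20 and 6.68. Clone 9L stood 4.38-fold above 15H, and the high-Sost clone 12H was next to it, so the spread within each group exceeded the difference between them, -0.39 (SE 0.79, 95% interval -2.65 to 1.87). The direction was not settled, since leaving out 9L gave 0.19 and leaving out 15H gave 0.21. Its chromosome, 15, had median deviations of -0.28 in 12H, 0.20 in 4L and 0.19 in 9L, and with these subtracted the difference was -0.10.

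**Figure D2:**
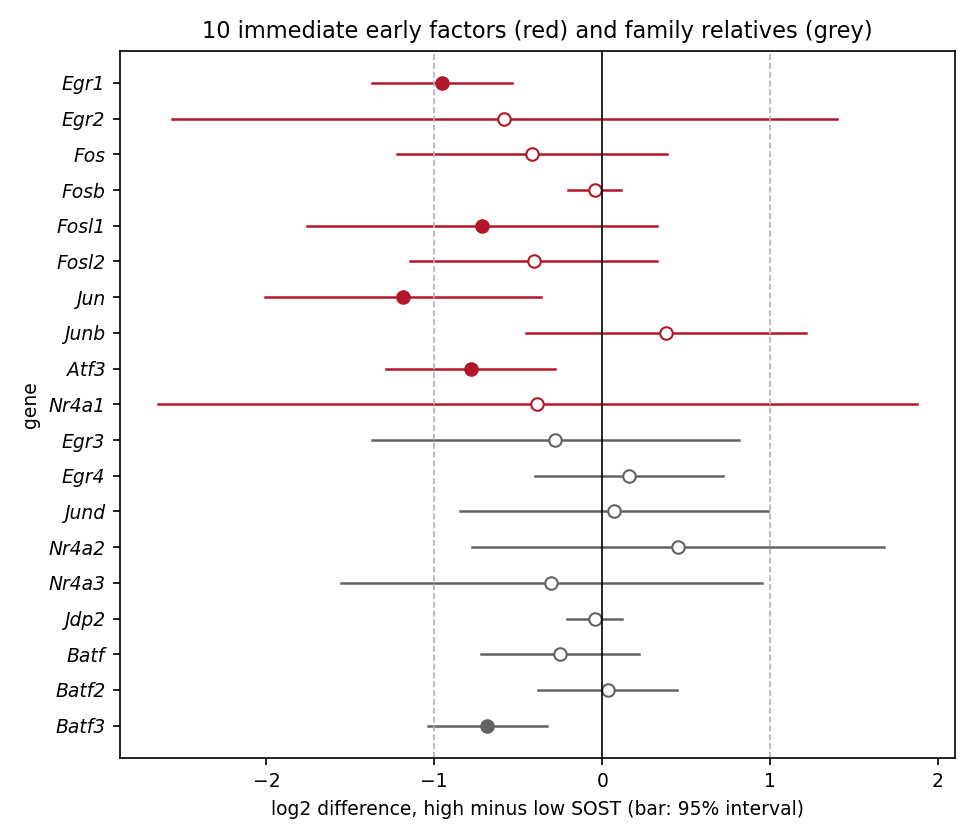
Difference in log2 expression, high-Sost minus low-Sost clones (horizontal axis), for the 10 factors (red) and 9 family relatives (grey), with the moderated 95% interval as a bar and dashed lines at 2-fold. Filled points mark genes whose groups do not overlap, and the intervals of Egr1, Jun, Atf3 and Batf3 lie below 0 while that of Nr4a1 runs from -2.65 to 1.87.

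Seen by clone, 12H was lowest for 5 of the 10 factors (Egr1, Fos, Fosl1, Jun and Atf3) and highest for Junb. Clone 24L was highest for 4 (Egr1, Egr2, Fosl2 and Jun), 9L for 3 (Fos, Fosb and Nr4a1), 4L for 2 (Fosl1 and Atf3) and 15H for 0. The mean of the 10 centred values was -0.31 in 12H and in 15H, 0.08 in 4L, 0.26 in 9L and 0.27 in 24L. Between 15H and 24L, 8 factors read higher in 24L, 0 in 15H and 2 were tied. The clones of 1 group also differed, with a median gap over the factors of 0.32 between 12H and 15H and of 0.39 to 0.62 among the low-Sost clones, against 0.53 to 0.89 between clones of different groups. The same medians over genes with a mean of 6 or more were 0.18, 0.23 to 0.26 and 0.19 to 0.30.

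Likeness between profiles was measured as the root mean square (RMS) difference of centred log2 values over the 5 clones. Among pairs of the 10, Egr1 with Jun had the smallest RMS difference, 0.24, and Fosl1 with Atf3 the next, 0.26. The widest were Fosl1 with Nr4a1, 1.04, and Jun with Nr4a1, 0.99. Against 1299 or 1300 genes with a mean of 6 or more and a span of at least 1, the closest to Egr1 were Cyp51, a sterol synthesis enzyme (RMS 0.09), Cavin4, a caveolar protein (0.09), and Arc, an activity-induced gene also on the immediate early list (0.12). The closest to Jun were Fstl1, a secreted glycoprotein (0.14), Ehd2 (0.14) and Steap1 (0.15). Atf3 lay closest to Arid5a (0.07), Tank (0.09) and Taf2 (0.09), and Fosl1 to Sema3f (0.05), Il6st, the signalling subunit of the interleukin-6 receptor family (0.07), and Tmem131l (0.09). Fos lay closest to Pepd (0.05), Stard4 (0.08) and Triobp (0.09), Egr2 to Tgfb2 (0.16), Rcn3 (0.19) and Fst (0.21), and Junb to Ccn4 (0.06), Ptgs2 (0.08) and P3h2 (0.08). The nearest genes to Nr4a1 were farther off, Kcnab2 at 0.34, Bnip3 at 0.35 and Tpi1 at 0.37. With 5 clones many genes share an order, and these distances describe the arrays only.

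The 9 family relatives had 5 negative and 4 positive differences, with a median of -0.04. Batf3, a bZIP partner of JUN proteins in immune cells, was the only relative without overlap, 11.1% of the 9 beside 7.75% of all genes. It read 4.41 in 12H and 4.68 in 15H, while 4L, 9L and 24L gave 5.10, 5.33 and 5.26, a difference of -0.68 (SE 0.12, limma adjusted p = 0.624). Its relative Batf differed by -0.25 (SE 0.16). Jund, the JUN family member that is transcribed steadily, read 9.01 in 12H and 9.00 in 4L, against 8.35 to 8.47 in the other 3 clones, and so split both groups. Jdp2, a repressor that pairs with JUN, read 8.24 to 8.38 throughout. Egr3 read highest in 24L (5.39) and lowest in 4L (4.26), the ends that Egr2 also had. Nr4a2 read 7.49 in 12H and 7.09 in 9L, the 2 clones in which Nr4a1 was highest, and 6.17 to 6.61 in the others, while Nr4a3 (2.52 to 3.78) and Egr4 (3.06 to 3.55) lay near the weak-signal level. At an unadjusted p under 0.05, 1 of the 9 was lower and 0 higher, beside 2.71% and 3.07% of all genes.

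Of 40 other immediate early genes, all measured, 33 had a negative difference and the median was -0.33. The groups did not overlap for 14 in the lower direction (35%, beside 7.75% of all genes and 13.5% of those with a mean of 6 or more, as 30 of the 40 had) and for 4 in the higher direction (10%, beside 8.26% and 12.9%). At an unadjusted p under 0.05, 6 were lower and 0 higher, beside 2.71% and 3.07% of all genes. Plk2, a polo-like kinase, averaged 4.67 ± 0.81 (SD, n = 2) in the high-Sost and 8.50 ± 0.70 (SD, n = 3) in the low-Sost clones, and its difference of -3.83 (SE 0.61) was the widest of the 40. Tnfaip3, an inhibitor of NF-kappaB signalling, differed by -1.31 (SE 0.54), and F3, the tissue factor of coagulation, by -1.29 (SE 0.57). Klf2, a zinc-finger factor known from flow-exposed endothelium, went the other way at 1.18 (SE 0.49). Arc, Myc, Ccn1 and Btg2 were also among the 14, and Ptgs2, Klf4 and Hes1 joined Klf2 among the 4, as named here after their values were seen. None of the 40 passed over all genes, with adjusted p from 0.599 to 1. By clone, 12H was lowest for 18 of the 40 and 4L highest for 18. The count of 14 was 22 without clone 15H, where 21.0% of all genes separated in the lower direction.

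**Figure D3:**
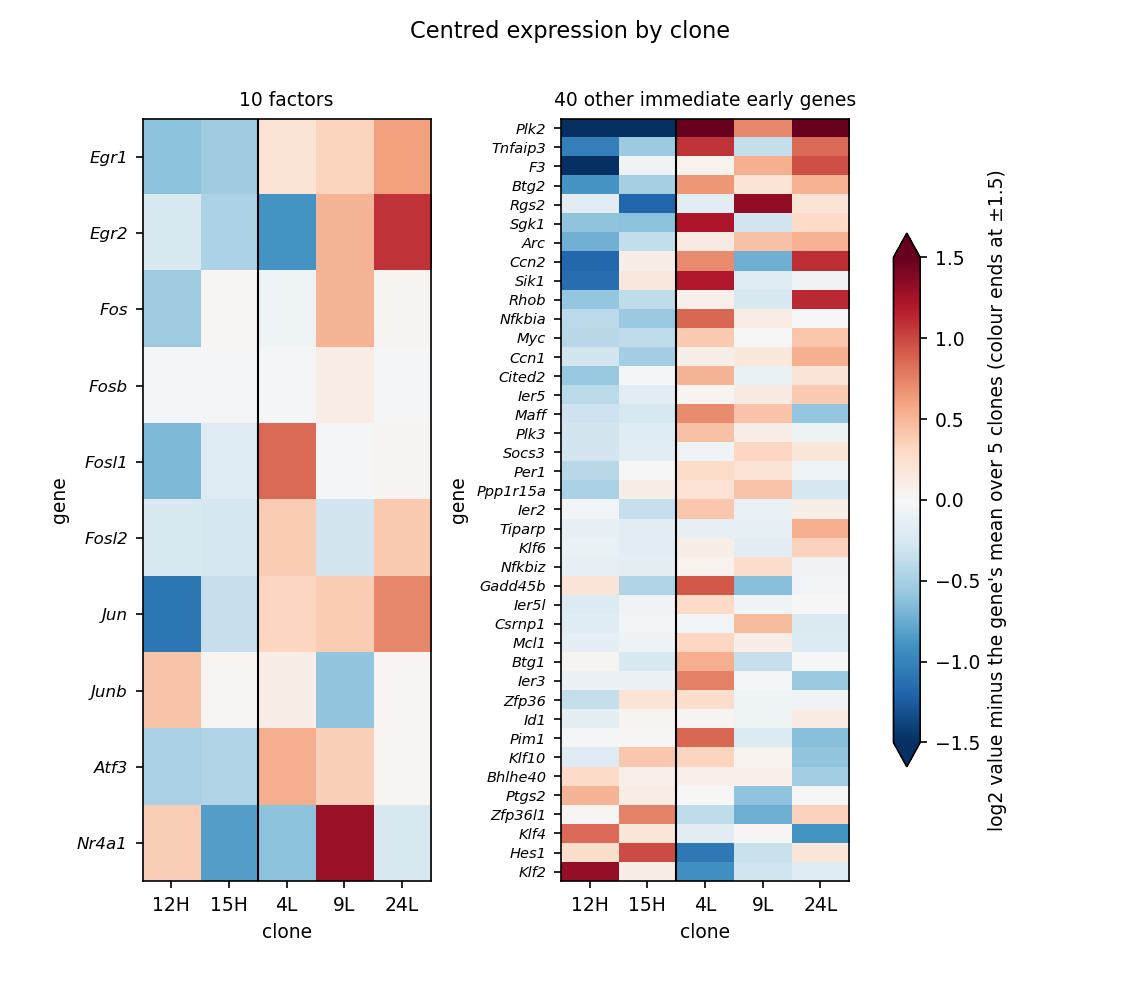
Log2 value minus the gene's mean over the 5 clones (colour, ending at ±1.5) for the 10 factors and 40 other immediate early genes (rows, the latter ordered by their difference) in each clone (columns), with a line between the 2 high-Sost and 3 low-Sost clones. Blue prevails in the 12H column and red in the 4L column, and Plk2 exceeds the colour range in 4 clones.

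Factors that act on immediate early promoters had a median difference of 0.03 over 17 genes, with 2 lower and 5 higher without overlap. These are 11.8% and 29.4% of the list, 16 of whose genes had a mean of 6 or more, and of all genes at that level 13.5% were lower and 12.9% higher. Srf, the CArG box factor, differed by -0.15 and its groups overlapped. Mrtfa, an actin-regulated coactivator of SRF, read 6.87 in 12H and 7.28 in 15H against 7.57 to 7.98 in the low-Sost clones. The 5 higher genes included Mef2c, a MADS-box factor (1.73, SE 0.84), and its relatives Mef2d (0.68, SE 0.18) and Mef2a, of which Mrtfa and Mef2a were chosen after their values were seen. None of the 17 passed over all genes, and 1 lower and 2 higher had an unadjusted p under 0.05 (2.71% and 3.07% of all genes).

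Feedback inhibitors and output genes of ERK signalling had a median difference of 0.07 over 20 genes, with 3 lower (15%) and 4 higher (20%) without overlap. Of all genes 7.75% were lower and 8.26% higher, and of those with a mean of 6 or more, as 11 of the 20 had, 13.5% and 12.9%. Dusp1, a phosphatase that inactivates MAP kinases and is itself immediate early, read 6.90 in 12H and 7.65 in 15H, while 4L, 9L and 24L gave 9.25, 8.33 and 7.73. As with Fosl1 and Atf3, 4L was highest and 12H lowest, and 24L lay only 0.09 above 15H. Spred2, an inhibitor of Raf activation, differed by 0.41 (SE 0.10). Nab2, a corepressor that EGR factors induce, differed by 0.23 with overlapping groups. None of the 20 passed over all genes, and 1 in each direction had an unadjusted p under 0.05 (2.71% of all genes lower, 3.07% higher).

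Target genes of AP-1 or EGR factors, 21 of 23 measured and 2 not analysed here, had a median difference of 0.00. Of the 21, 17 exceeded the weak-signal level in all 5 clones. In the lower direction 4 did not overlap, led by Ccl2, a monocyte chemokine (-2.67, SE 0.85), and Plau, the urokinase gene (-1.16, SE 0.29). In the higher direction 5 did not overlap, led by Ccnd1, the cyclin D1 gene (1.90, SE 0.72), and Mmp13, a collagenase of bone (1.84, SE 0.73). Mmp13 exceeded the weak-signal level only in 12H (3.73) and 15H (5.81), and read 2.56 to 3.23 in the low-Sost clones. These shares, 19.0% lower and 23.8% higher, compare with 7.75% and 8.26% of all genes, and with 13.5% and 12.9% of genes with a mean of 6 or more, as 14 of the 21 had. None of the 21 passed over all genes, with 2 in each direction at an unadjusted p under 0.05, where 2.71% of all genes were lower and 3.07% higher.

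Heat shock genes were read as a possible sign of stress in the cultures, and whether they measure it here was not tested. Of 11, 9 had a negative difference, 2 were lower and 1 higher without overlap, and the median was -0.18. The non-overlapping shares were 18.2% lower and 9.09% higher, beside 7.75% and 8.26% of all genes and 13.5% and 12.9% of genes with a mean of 6 or more, where 8 of the 11 lay. Hspa1b, an inducible HSP70 gene, read 6.30 in 12H and 6.65 in 15H, while 4L, 9L and 24L gave 7.41, 7.38 and 7.01 (difference -0.79, SE 0.19), and Bag3, a co-chaperone of HSP70, differed by 0.29 (SE 0.14). Hspa1a, named after its values were seen, differed by -0.90 (SE 0.695) with overlapping groups. The mean log2 level of the 11 genes was 7.47 in 12H and 7.89 in 15H, and 7.78 to 8.04 in the low-Sost clones. Clone 12H was lowest for 7 of them. None of the 11 passed over all genes, and 1 lower and 0 higher had an unadjusted p under 0.05 (2.71% and 3.07% of all genes). The part of culture stress in the values of Egr1, Jun and Atf3 was not tested.

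**Figure D4:**
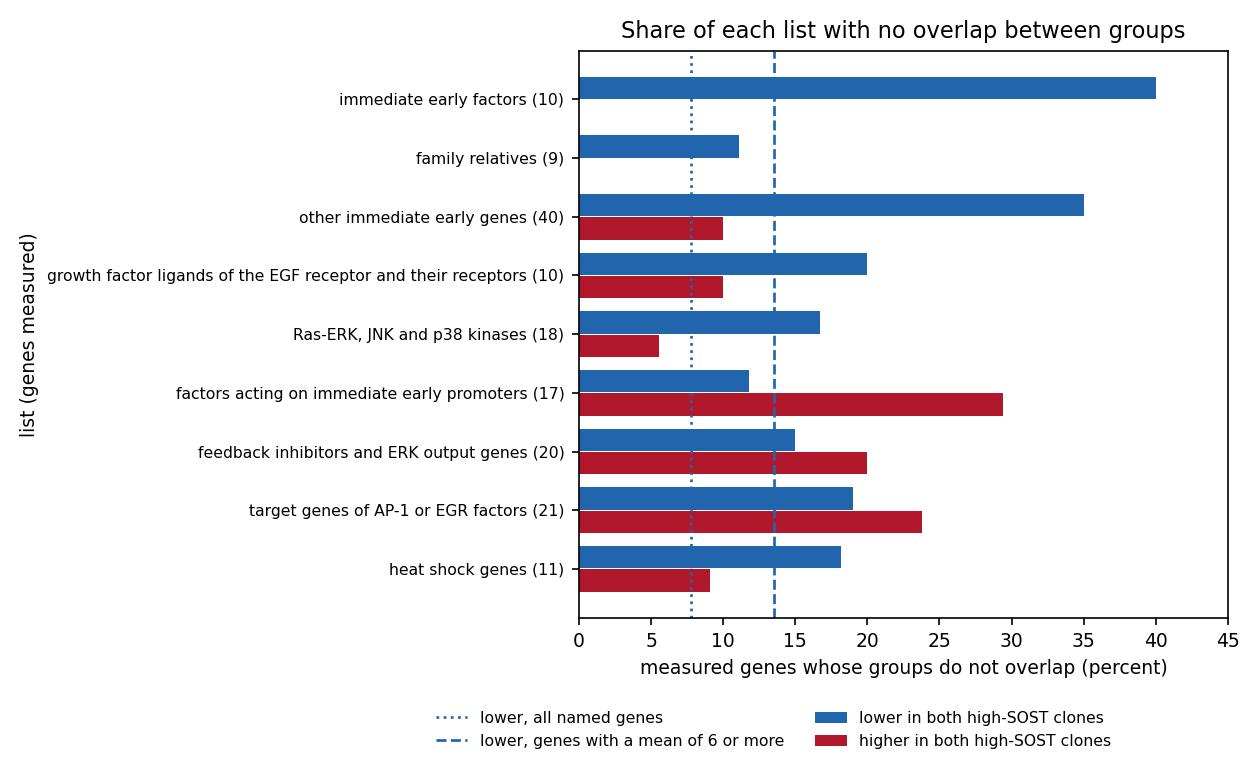
Share of the measured genes (horizontal axis, percent) of 9 gene lists, cell type markers not drawn, whose 2 high-Sost and 3 low-Sost clones do not overlap, lower (blue) or higher (red) in the high-Sost clones, with the lower share of all named genes (dotted, 7.75%) and of genes with a mean of 6 or more (dashed, 13.5%). The 10 factors (40% lower) and the 40 other immediate early genes (35% lower) have the longest blue bars of the 9 lists, while the fibroblast or tendon markers, not drawn, had 50% lower (3 of 6).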

How the data were processed

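The deposited values are log2 expression per probe set on 5 arrays. RMA was used with affy 1.36.1 and R 2.15.1, per the submitters' processing notes, which give no roles. Chip definition, filtering and build were not given in the sources used here. RMA brings arrays to 1 distribution, so a shift shared by most genes is removed, and its summary gives tied values (55.9% of named genes hold a repeat).

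All 23185 probe sets with 1 gene were named by Entrez gene number through RefSeq (GRCm38.p6), and 2021 unnamed ones were left out. The test was limma 3.58.1 under R 4.3.3 (lmFit, then eBayes without a trend; 3 residual and 0.701 prior degrees of freedom), two-sided, with Benjamini-Hochberg adjustment. The p-values set the group difference against the spread between clones, moderated by limma with the variance of other genes. With 1 array per clone, that spread includes variation between cultures and arrays. For a single gene, exact permutation of 5 clones gives no p below 0.1. The fit was tested on simulated data.

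The factors and lists were chosen with earlier results of these data known. Named by rule beside the 10 factors are, per list, up to 4 genes at least 2-fold apart without overlap, filled to 2 by p. The 3 nearest profiles of each factor spanning 1 or more are also named. Other list genes, such as Jund, Jdp2, Egr3, Egr4, Nr4a2, Nr4a3, Srf and Nab2, were named outside this rule. Promoters come from RefSeq. Figures used matplotlib 3.10.9.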

Additional observations from a re-analysis of the deposited data

How the results depend on the processing

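Over 13 alternatives (a filter on the dimmest 30% of genes, arrays shifted to 1 median, a repeat of quantile normalization, limma's trend option plain and robust, array weights, an unmoderated test, chromosome medians subtracted, and each clone left out), none of the 10 factors passed. Only the median shift, the repeated quantile normalization and the chromosome medians could make separate groups overlap, and Egr1, Jun, Atf3 and Fosl1 stayed without overlap in these. The filter and the test options leave each gene's values unchanged, and leaving out a clone cannot create overlap. Adjusted p ranged from 0.283 to 0.724 for Egr1, 0.164 to 0.732 for Jun, 0.443 to 0.732 for Atf3 and 0.648 to 1 for Fosl1. The count of genes called was 2 with arrays shifted to 1 median, 2 with chromosome medians subtracted and 1 with the unmoderated test, against 0. With a clone left out, the count of factors at least 2-fold lower without overlap ran from 0 to 3. No share of all genes at 2-fold was computed for these settings. The count of factors higher without overlap ran from 0 to 1 (Junb without 15H, where 25.2% of all genes were higher without overlap). The difference of Nr4a1 ran from -0.98 to 0.21, with reversed signs without 15H (0.21) and without 9L (0.19). The difference of Fosb was 0 without 9L. The median of the 10 stayed between -0.60 and -0.50. The causes were not tested. A group left with 1 clone was assumed to vary like the other group. There was no gene with several probe sets to average, and no replicate number is shared by the groups. No paired analysis was possible because each clone belongs to 1 group. The alternatives for the 40 other immediate early genes were added after the data were seen. The number of arrays, and tied values near background, limit what can be told apart.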

Other observations

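Receptors and kinases upstream of the immediate early genes were measured too. Egfr, the epidermal growth factor receptor, read 3.61 in 12H and 5.29 in 15H, while 4L, 9L and 24L gave 6.48, 5.57 and 7.95. Its 2 high-Sost clones lay below the others, but 15H was only 0.28 below 9L, and the difference was -2.22 (SE 0.99, limma adjusted p = 0.737). Tgfa, a ligand of that receptor, read higher in both high-Sost clones (0.74, SE 0.29). Hbegf, another ligand, named after its values were seen, read lower in both (-0.75, SE 0.465). The median over the 10 ligand and receptor genes measured was 0.04, with 2 lower (20%) and 1 higher (10%) without overlap. Among all named genes these shares were 7.75% and 8.26%. Of 27 kinases and adaptors of the Ras-ERK, JNK and p38 pathways 18 were measured and 9 are not analysed here. Their median difference was 0.05, with 3 lower (16.7%) and 1 higher (5.56%) without overlap. Of the 18, 17 had a mean of 6 or more, and of all genes at that level 13.5% were lower and 12.9% higher. Map2k1, the kinase MEK1, read 6.89 in 12H and 7.46 in 15H against 7.73 to 7.95 in the low-Sost clones (-0.67, SE 0.21), and Rps6ka5, a nuclear kinase downstream of ERK and p38, differed by -0.29 (SE 0.09). None of these genes passed over all genes. At an unadjusted p under 0.05 the kinases held 2 lower and 0 higher, and the ligands and receptors 0. Of all genes 2.71% were lower and 3.07% higher at that p.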
